A study of Mus musculus with 28 samples.

Results

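The comparison set late against early arteriovenous fistulas (AVFs) of the mouse, an access of the kind made surgically for hemodialysis by joining a vein to an artery. It rested on 13 of the 28 samples of the study, the bulk RNA libraries of 8 early AVFs labelled day 3 and of 5 late AVFs labelled day 21. These members were chosen by label alone. Each library held the poly(A) RNA of the outflow jugular vein of 1 C57BL/6 mouse. Every mouse, controls included, had first lost kidney tissue by 5/6 nephrectomy and later received an end-to-side anastomosis of jugular vein and carotid artery, and the labels and methods name no transgene and no drug treatment. The early group held 5 mice labelled male and 3 labelled female, and the late group 2 and 3. The days are nominal, since per the study's methods harvest days varied within a group, most of all among early AVFs. The remaining 15 samples were bulk libraries of 7 contralateral veins and 5 mid AVFs labelled day 10, and 3 single-cell libraries of pooled vessels. They serve here as levels, and the bulk libraries among them also share the spread in 2 of the alternative fits. No sham-operated vein was among the samples used here, so that time after surgery and time after nephrectomy moved together.

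After anastomosis a vein receives arterial pressure and flow. Surgery and flow injure the wall, neutrophils and monocytes enter from the blood, and fibroblasts and smooth muscle cells divide and lay down matrix. As the wound resolves, leukocytes leave or change state, and collagen, elastic fibers, and basement membranes accumulate in a thickened wall. The patency of the lumen depends on the balance of these processes, which is why early and late walls were set side by side.

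Of 18 cell division genes tested, 12 were called lower in late AVFs, as were 7 of 13 neutrophil and 6 of 11 inflammatory macrophage genes. Called higher were 8 of 15 basement membrane genes, 3 of 6 pericyte genes, 3 of 12 resting fibroblast genes, and 3 of 17 fibrillar collagen and elastic fiber genes. None of these 7 lists held a call in the opposite direction. The 6 macrophage calls fell to 0 without any 1 late AVF, the 7 neutrophil calls to 0 without late AVF 16, 19, 23, or 24, and the 12 cell division calls to 1 without late AVF 19. The 8 basement membrane calls fell to 4 without late AVF 19 or 24. Levels are given in CPM, counts of a gene relative to the total of its library, with totals scaled by the trimmed mean of M values (TMM), a method that sets libraries to a common reference. A gene was called when the Benjamini-Hochberg adjusted p of edgeR's quasi-likelihood F test was under 0.01 and the absolute log2 fold change was at least 1. Of 12857 genes tested, 587 were called, or 4.57%. Of these, 240 were higher in late AVFs (1.87% of genes tested) and 347 were lower (2.7%). Without regard to the test, all 5 late AVFs lay above all 8 early AVFs for 869 genes (6.76%) and below them for 1103 (8.58%), together 1972 (15.3%). The groups did not overlap for 215 of the genes called higher and for 311 of those called lower. The median log2 fold change of all genes tested was 0.01. In bulk tissue, fewer cells of a type and less RNA per cell cannot be told apart.

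**Figure D1:**
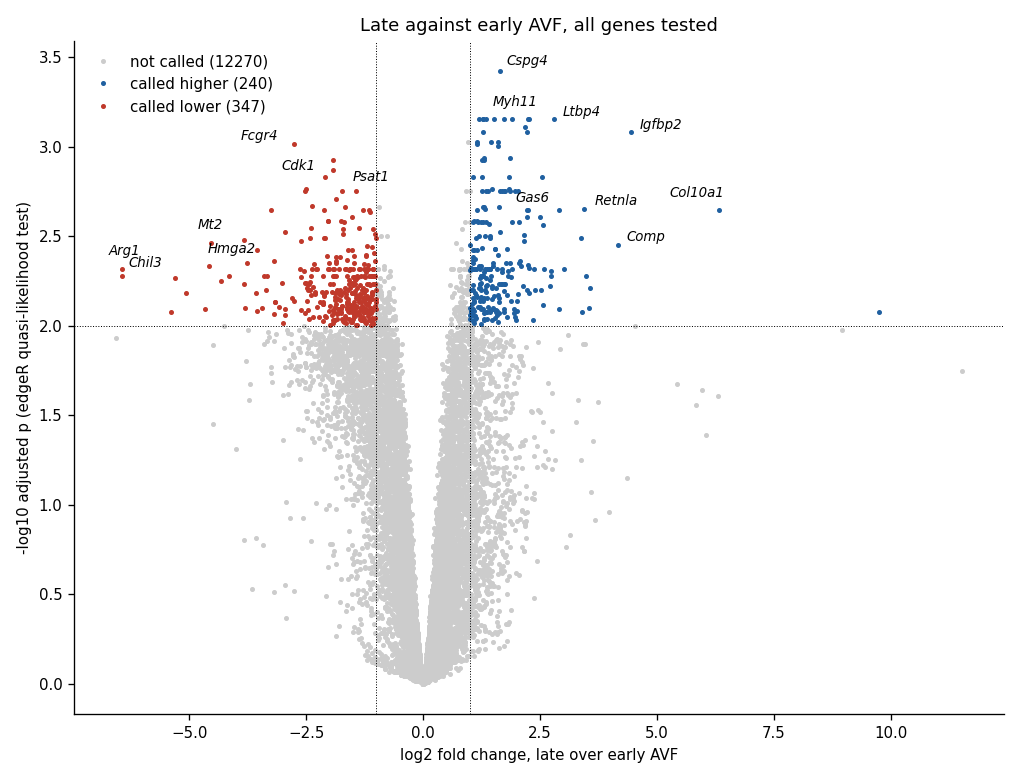
Log2 fold change of late over early AVFs (horizontal axis) against the adjusted p of edgeR's quasi-likelihood test on a −log10 scale (vertical axis), 1 point per gene for 12857 genes. The 240 genes called higher stand at the right and the 347 called lower at the left. The called gene farthest right is Ighv1-34, at a log2 fold change of 9.76, whose counts lay almost wholly in 1 late AVF.

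The number of genes called depended on which vessels were included. Leaving out 1 early AVF gave from 196 calls (without early AVF 2) to 1125 (without early AVF 10). Leaving out early AVF 3 gave 201 and early AVF 5 gave 363. With 4 late AVFs in place of 5 the count was 85, 130, 72, 140, and 82 when late AVF 16, 17, 19, 23, or 24 was the one omitted. All 587 genes kept their sign in each of these fits in which they were tested. The fits reuse libraries by which the genes were chosen, so a kept sign was close to fixed beforehand. A set of 64 genes, 52 higher and 12 lower, was called in all 13 fits that left out 1 library, and statements on single genes are firmest for these. Among 76 genes named by rule, 16 belong to this set. They are Col10a1, Igfbp2, Retnla, Gas6, Myh11, Smtn, Cspg4, Pdgfrb, Gsn, Ltbp4, Lamb2, Col18a1, Col4a1, and Col4a5 among the rises, and Cdk1 and Psat1 among the falls. Of these, Col10a1, Cspg4, Pdgfrb, Col18a1, Col4a5, Cdk1, and Psat1 lost the call when all 25 bulk libraries shared the spread. The named genes outside this set of 16 lost their call most often without a late AVF. Of the 76 genes, 21, 30, 19, 28, and 18 were still called without late AVFs 16, 17, 19, 23, and 24, against 42 without early AVF 3 and 45 without early AVF 2.

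**Figure D2:**
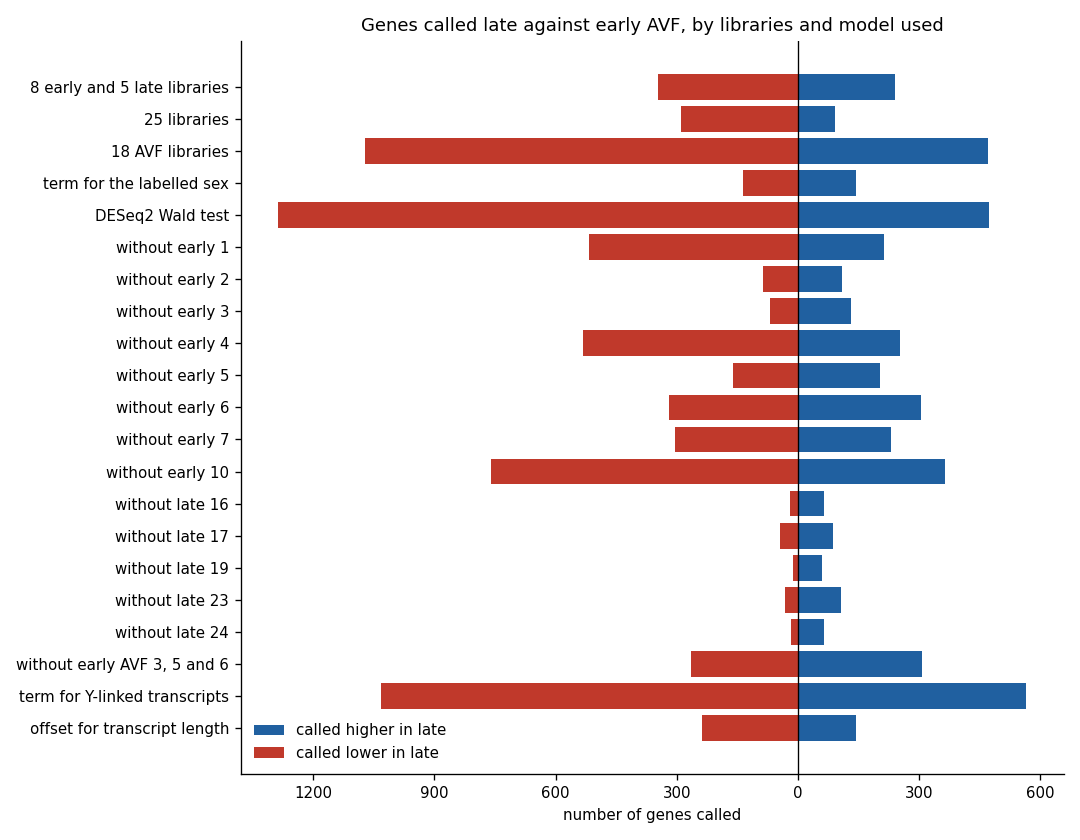
Number of genes called higher (to the right) and lower (to the left) in late AVFs with all 8 early and 5 late libraries (top) and under settings that leave out libraries or change the model, with 1 pair of bars per setting. The full set called 240 higher and 347 lower, and each fit without 1 late AVF called fewer in both directions, 72 to 140 in all.

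Early AVFs differed more among themselves than late AVFs did. Total counts ran from 23676215 to 67457501 in early AVFs and from 27855449 to 36879746 in late AVFs. The median rank correlation of a library with its own group was 0.797 to 0.935 among early AVFs and 0.931 to 0.955 among late AVFs. Early AVFs 3, 5, and 6 stood apart from the other 10 libraries on the first principal component, which held 48% of the variance. In these libraries 46.2%, 49.5%, and 50.3% of counts lay on genes whose longest transcript was under 2000 bases, against 29.1% at the lowest early AVF and 22.8% to 27.1% in late AVFs. They also held 21522, 19074, and 17514 detected genes, against 24033 to 25141 in the other early AVFs. Genes called lower had a median longest transcript of 1993 bases and genes called higher of 4558, with 3420 over all genes tested. Without these 3 libraries, 571 genes were called (307 higher, 264 lower), and 64 of the 76 named genes kept the call. An offset that removed the relation of counts to transcript length in each library left 380 calls (143 higher, 237 lower), 323 of them among the original 587, and 59 of the 76 named genes kept the call. The calls of Mgl2, Hr, Ly6c2, Gm19951, Ccl3, Il18, Il6st, Tnf, Plac8, Fcgr3, Cox5a, Hspe1, Gnl3, Smtn, Eln, Timp1, and Ltbp1 were lost with the offset. Those of Gm19951, Ccl3, Il6st, Tnf, Spp1, Fcgr3, Hk2, Cox5a, Gnl3, Tek, Eln, and Ltbp1 were lost without the 3 libraries. Whether RNA quality differed between libraries was not tested, since no measure of it was used here.

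The labelled sex went against the Y-linked transcripts in 6 of the 13 libraries. The sum over Ddx3y, Uty, Kdm5d, and Eif2s3y was 253 CPM in early AVF 10 and 221 and 216 CPM in late AVFs 17 and 19, all labelled female. It was 0 in early AVF 5 and 0.134 and 0.0564 CPM in late AVFs 23 and 24, all labelled male. Results by sex are therefore results by label. A term for labelled sex left 278 calls, and 53 of the 76 named genes kept the call. A term for presence of Y-linked transcripts gave 1599, with all 76 named genes among them. Labelled males alone gave 4 calls. Labelled females alone gave 0 by edgeR, with 3220 genes at an unadjusted p under 0.05. The log2 fold change of all 76 named genes had the same sign in labelled males and labelled females. These genes were chosen by calls over the same 13 libraries, so a shared sign was likely from the choice alone and is no replication. The difference between labelled sexes in the late-early change itself was called for 0 genes by edgeR at an adjusted p under 0.05 (1022 at an unadjusted p under 0.05) and for 64 by DESeq2.

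Transcripts of tissue that lies beside the vessels were high in some libraries. The summed level of 8 thyroid and parathyroid genes was 18670 CPM in early AVF 1 and 8460 CPM in late AVF 19, mostly parathyroid hormone Pth, and 1.61 to 97.7 CPM in the other 11 libraries. Summed skeletal muscle genes ran from 14.5 to 7168 CPM in early AVFs and from 17.9 to 13640 CPM in late AVFs, with the highest value in late AVF 23. They stood at 5265 and 7168 CPM in early AVFs 1 and 10 and at 1022 and 1870 CPM in late AVFs 16 and 19. Sympathetic neuron genes reached 2887 CPM in early AVF 7, and 687 and 327 CPM in late AVFs 16 and 24. Of the 41 lists, those for skeletal muscle, thyroid and parathyroid, sympathetic neuron, white adipocyte, brown adipocyte, and Schwann cell held 0 called genes. Markers of the vessel wall were present throughout, with summed levels of at least 1208 CPM for smooth muscle, 504 CPM for endothelial, and 1086 CPM for resting fibroblast genes in each of the 13 libraries.

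**Figure D3:**
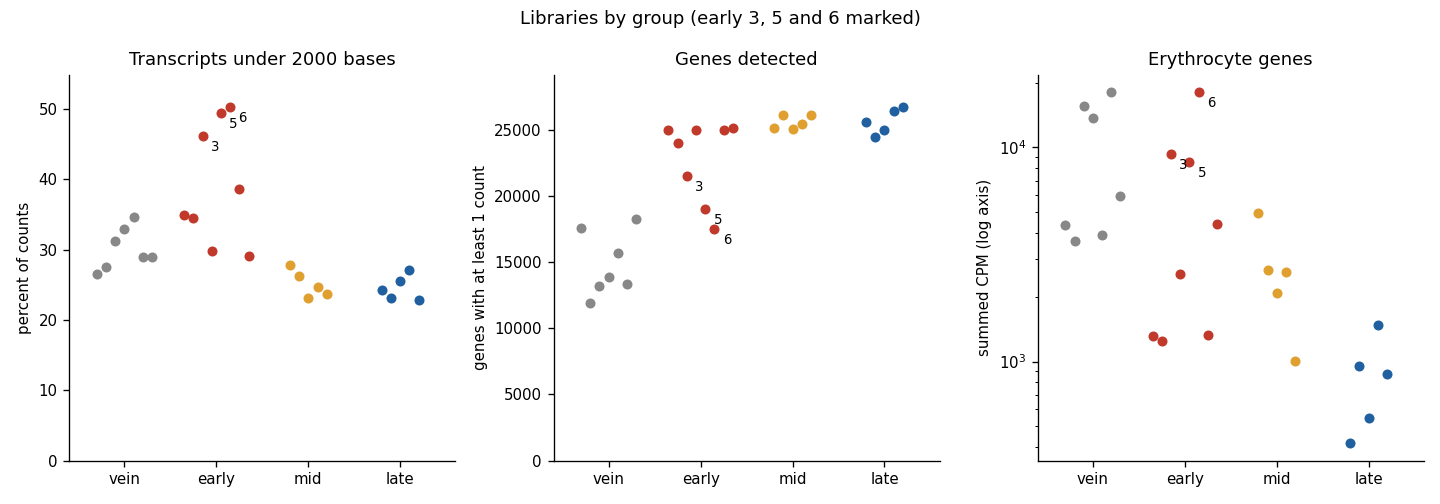
Properties of the libraries by group (contralateral vein, early, mid, and late AVF), 1 point per library, in 3 panels: the percent of counts on genes with transcripts under 2000 bases, the number of genes detected, and the summed level of erythrocyte genes in CPM on a log axis. Early AVFs 3, 5, and 6 hold 46.2% to 50.3% of counts on short transcripts, above the other early AVFs and all late AVFs.

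The genes described first are the 12 called rises of largest log2 fold change among genes whose groups did not overlap and whose mean was at least 10 CPM in late AVFs. Of these 12, 4 kept the call without any 1 library. Separate ranges were a condition of the choice, here and for the 12 falls below, and are repeated as description only. In what follows, late values are listed in the order of late AVFs 16, 17, 19, 23, and 24, early values as lowest, median, and highest of 8, and each change as log2 fold change with its standard error (SE).

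Col10a1, a network-forming collagen of hypertrophic cartilage, ranged from 0 to 0.868 CPM in early AVFs (median 0.146) and reached 9.47, 11.8, 19.4, 39.5, and 12.6 CPM in late AVFs. The lowest late AVF was thus above the highest early one, and late AVF 23 stood highest. The change was 6.33 ± 0.96 (SE, adjusted p = 0.00227). Igfbp2, which binds insulin-like growth factors in the extracellular space, ranged from 0.903 to 14.6 CPM in early AVFs (median 3.85) and reached 85.3, 38.5, 134, 142, and 128 CPM. The groups did not overlap, and late AVF 17 was the lowest of its group. Its change was 4.45 ± 0.54 (SE, adjusted p = 0.000831), and the contralateral veins held 313 ± 223 CPM (SD, n = 7), a mean above every late AVF. Retnla, a secreted product of alternatively activated macrophages, ranged from 6.57 to 74.4 CPM in early AVFs (median 36.6) and stood at 603, 195, 340.4, 494, and 327 CPM. Here too every late value exceeded every early one, by a change of 3.45 ± 0.52 (SE, adjusted p = 0.00222). Gas6, the ligand of the TAM receptors through which phagocytes take up dying cells, ranged from 65.6 to 407 CPM in early AVFs (median 161) and stood at 1139, 1782, 1496, 954, and 1282 CPM. No late AVF came down to the early range, with a change of 2.90 ± 0.44 (SE, adjusted p = 0.00227). The change of Col10a1 was 7.53 with the term for Y-linked transcripts, and that of Retnla 4.67 with the length offset.

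Comp, a pentameric glycoprotein of cartilage and tendon that organizes collagen fibrils, ranged from 0.398 to 16.4 CPM in early AVFs (median 6.19) and stood at 43.8, 107, 121, 144, and 134 CPM. Late AVF 16 was far below the other 4 late AVFs and still above all early ones. The change of 4.17 ± 0.70 (SE, adjusted p = 0.00353) lost its call without late AVF 19 or 24. Fbln7, a fibulin that binds cells and matrix, changed by 3.37 ± 0.56 (SE, adjusted p = 0.00325), a call lost without late AVF 16 or 19. Mgl2, a lectin of dermal and interstitial macrophages and dendritic cells, ranged from 0.0797 to 27.5 CPM in early AVFs (median 8.55) and stood at 139, 93.2, 123, 92.5, and 91.6 CPM. Its change was 3.40 ± 0.74 (SE, adjusted p = 0.00842). The call of Mgl2 was lost without any 1 of early AVFs 2, 3, 4, 5, and 7 or any late AVF, and with the length offset. Mmrn1, which marks lymphatic endothelium and is also held by platelets, changed by 3.49 ± 0.66 (SE, adjusted p = 0.00525), Sost, a secreted Wnt antagonist, by 3.56 ± 0.76 (SE, adjusted p = 0.00792), Cpxm2, a carboxypeptidase-like matrix protein, by 3.57 ± 0.70 (SE, adjusted p = 0.00613), and Itga11, a collagen receptor of fibroblasts, by 3.01 ± 0.54 (SE, adjusted p = 0.00481). Hr, a nuclear corepressor, changed by 2.91 ± 0.62 (SE, adjusted p = 0.00807). These 5 genes did not overlap between groups, and each lost its call without any 1 of the 5 late AVFs and without early AVF 2. Cpxm2, Itga11, and Hr lost it without early AVF 3 too, Sost without early AVF 1 or 7, and Hr without early AVF 1 or 5. With the term for Y-linked transcripts the change was 5.23 for Comp, 4.43 for Cpxm2, 4.02 for Mgl2, and 3.67 for Itga11.

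The 12 falls of largest size under the same limits, with at least 10 CPM in early AVFs, are described next. Called genes whose groups overlapped, such as the neutrophil genes Lcn2 and S100a8, are given with their lists. Arg1, which turns arginine into ornithine and marks wound macrophages, ranged from 36.3 to 2924 CPM in early AVFs (median 409) and had fallen to 12.6, 8.07, 6.09, 7.97, and 11.3 CPM. All 5 late AVFs lay below all early AVFs, and within the early group the highest and the lowest vessel were far apart. The change was −6.43 ± 1.16 (SE, adjusted p = 0.00481). Chil3, a chitinase-like protein of inflammatory monocytes and alternatively activated macrophages, ranged from 30.6 to 1703 CPM in early AVFs (median 347) and stood at 1.78, 15.2, 3.90, 2.47, and 12.4 CPM. Its ranges were also apart, with a change of −6.43 ± 1.21 (SE, adjusted p = 0.00525). Both calls were lost without any 1 of the late AVFs, where the adjusted p reached 0.0170 for Arg1 and 0.0185 for Chil3. The change of Arg1 was −5.75 with the length offset and −5.03 without early AVFs 3, 5, and 6.

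Mt2 and Mt1, the metallothioneins that bind zinc and copper, fell together. Mt2 ranged from 10.8 to 163 CPM in early AVFs (median 50.6) and stood at 3.43, 4.39, 3.13, 3.25, and 1.92 CPM, a change of −4.52 ± 0.75 (SE, adjusted p = 0.00343). Mt1 changed by −3.41 ± 0.64 (SE, adjusted p = 0.00525). With the length offset the changes were −2.65 for Mt2 and −2.39 for Mt1, and without early AVFs 3, 5, and 6 they were −3.21 and −2.30. Neither gene overlapped between groups, and both lost the call without any 1 late AVF. Crabp1, a cytoplasmic retinoic acid binding protein, changed by −5.06 ± 1.02 (SE, adjusted p = 0.00660), and Hmga2, an architectural chromatin protein of embryonic and growing mesenchyme, by −3.76 ± 0.66 (SE, adjusted p = 0.00448). Fpr2, a receptor for formylated peptides on neutrophils and monocytes, ranged from 8.86 to 94.2 CPM in early AVFs (median 29.5) and stood at 3.07, 4.07, 4.36, 1.503, and 2.68 CPM. The ranges were apart, and the change of −3.82 ± 0.63 (SE, adjusted p = 0.00333) lost the call without late AVF 16, 19, 23, or 24. Ly6c2, the surface marker of inflammatory monocytes, changed by −3.55 ± 0.77 (SE, adjusted p = 0.00829), Ifitm1, an interferon-induced membrane protein, by −3.56 ± 0.72 (SE, adjusted p = 0.00660), and Cstdc4, of the stefin A cluster, by −5.31 ± 1.01 (SE, adjusted p = 0.00544). The predicted genes Gm5150 and Gm19951 changed by −3.55 and −3.45. Ly6c2, Cstdc4, Gm5150, Mt1, and Mt2 have close paralogs, so that reads shared between copies could have been split or dropped by the authors' counting. Except for Gm5150, which lost it without late AVF 16, 19, or 24, Crabp1, Hmga2, and the genes after Fpr2 lost the call without any 1 late AVF. Chil3, Cstdc4, and Mt1 lost it without early AVF 3, Crabp1, Ifitm1, Ly6c2, and Gm19951 without early AVF 2, 3, or 5, and Gm19951 without early AVF 7 as well. With the length offset the change was −3.44 for Crabp1, −2.87 for Fpr2, −2.27 for Ifitm1, −2.69 for Gm5150, and −2.73 for Gm19951. Without early AVFs 3, 5, and 6 it was −3.33 for Crabp1, −2.75 for Fpr2, −2.29 for Ifitm1, −2.63 for Gm5150, −3.47 for Cstdc4, and −2.94 for Ly6c2.

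**Figure D4:**
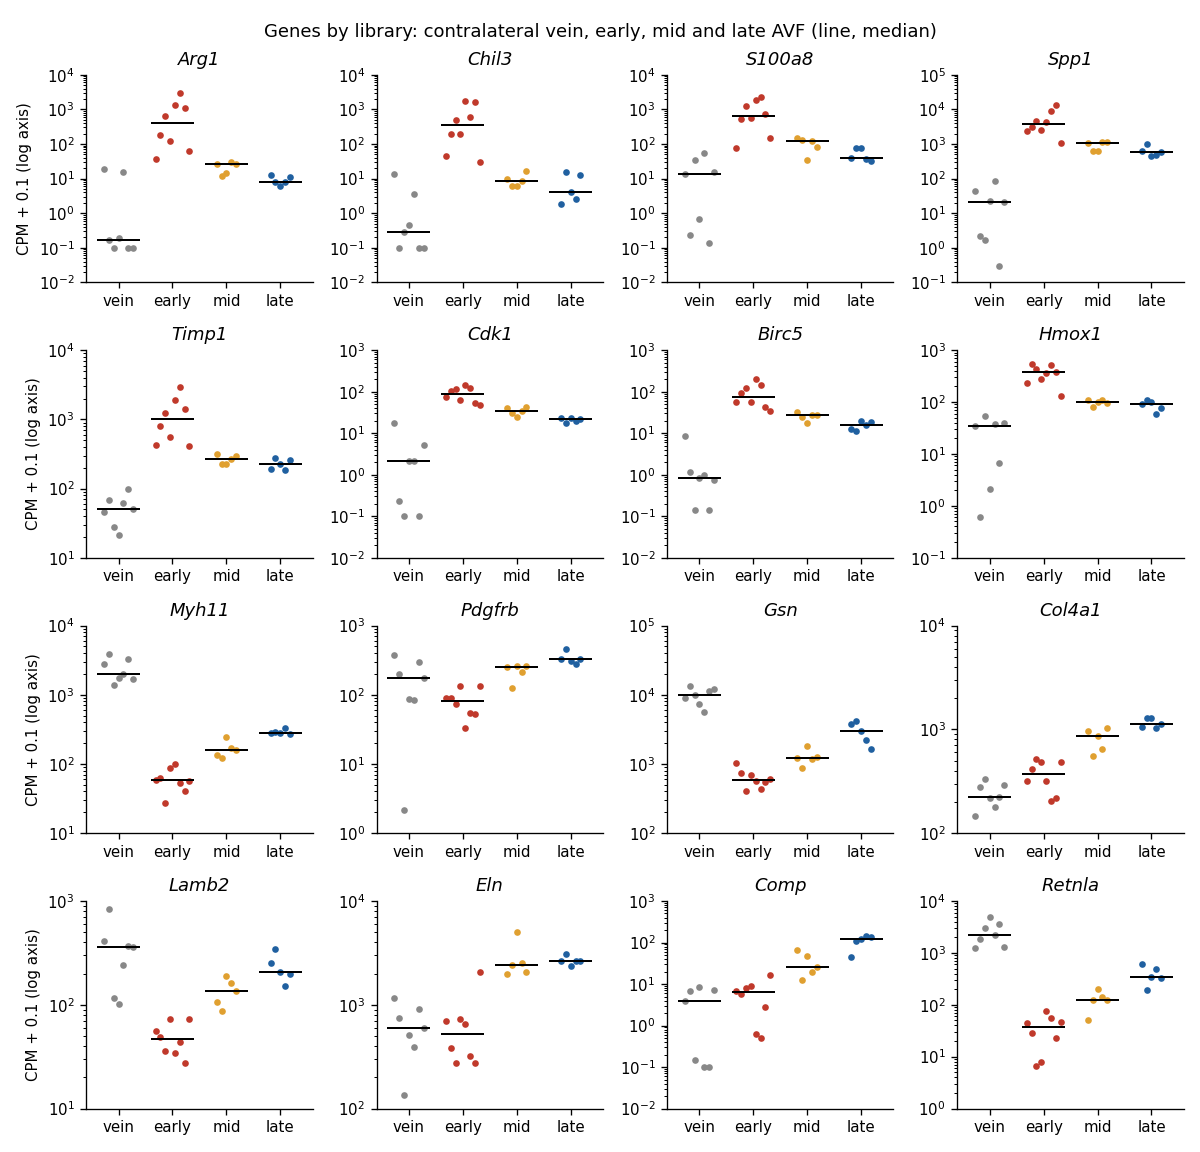
Level in CPM on a log axis with 0.1 CPM added, for 16 genes, 1 point per library of contralateral vein, early, mid, and late AVF, with a line at each group median. Veins and mid AVFs took no part in the test. Late AVFs lie below all early AVFs for Arg1, Chil3, Spp1, Timp1, Cdk1, Birc5, and Hmox1, and above them for the 8 genes of the lower rows, while S100a8 overlaps.

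Neutrophil genes fell. Of 14 neutrophil markers 13 were tested, 7 were called lower and 0 higher, and the median log2 fold change was −3.19 against 0.01 over all genes. Here and in the lists below, counts of calls stand against 1.87% of genes tested called higher and 2.7% called lower. Separate ranges stand against 6.76% with late AVFs above and 8.58% with late AVFs below. A list with 1 or 2 calls is given as values only. Summed over the neutrophil list, early AVFs held 367 to 5440 CPM and late AVFs 149 to 339 CPM. Il1r2, a decoy receptor that captures interleukin 1, ranged from 26.9 to 243 CPM in early AVFs (median 102) and stood at 14.5, 18.6, 13.0, 12.0, and 7.64 CPM. Its groups did not overlap, and the change was −3.19 ± 0.56 (SE, adjusted p = 0.00434). Cxcr2, the receptor through which neutrophils follow CXC chemokines, changed by −2.29 ± 0.41 (SE, adjusted p = 0.00481), also without overlap. S100a8, an alarmin subunit that is among the most abundant proteins of neutrophils, ranged from 76.0 to 2312 CPM in early AVFs (median 655) and stood at 40.4, 78.9, 77.9, 36.3, and 32.9 CPM. The early range was wide enough to reach into the late one, and the change was −4.14 ± 0.78 (SE, adjusted p = 0.00525). It was −2.31 with the length offset and −2.99 without early AVFs 3, 5, and 6. Lcn2, an iron-scavenging granule protein, changed by −4.57 ± 0.81 (SE, adjusted p = 0.00463), with overlapping ranges, and by −3.95 and −3.97 under those settings. Csf3r, the receptor for granulocyte colony-stimulating factor, did not pass (−1.34 ± 0.37, adjusted p = 0.0192). No call of this list remained without late AVF 16, 19, 23, or 24, and leaving out other libraries gave up to 10. S100a8 lost its call without early AVF 3 as well. The list held 1 call with the spread shared over all 25 bulk libraries and 11 over the 18 AVFs.

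Chemokine transcripts were lower on the median. Among 13 CC chemokines and receptors, 3 were called lower and 0 higher (median −1.88), and the 5 neutrophil-attracting chemokines had 0 calls with a median of −2.16. Ccr1, a receptor of monocytes and neutrophils, ranged from 70.4 to 346 CPM in early AVFs (median 153) and stood at 35.9, 48.2, 41.1, 30.2, and 36.7 CPM. Late AVFs lay below early AVFs throughout, and the change was −2.10 ± 0.35 (SE, adjusted p = 0.00325). Ccl3, a macrophage chemokine, changed by −3.16 ± 0.66 (SE, adjusted p = 0.00734) without overlap, and by −1.70 with the length offset and −2.16 without early AVFs 3, 5, and 6, neither of them called. Ccl2, the main attractant of inflammatory monocytes, did not pass: it had a mean of 658 ± 714 CPM (SD, n = 8) in early and 74.1 ± 20.9 CPM (SD, n = 5) in late AVFs (−3.15 ± 0.74, adjusted p = 0.0112). Its receptor Ccr2 was at 311 ± 116 CPM (SD, n = 8) and 264 ± 49.96 CPM (SD, n = 5) (−0.23 ± 0.25, adjusted p = 0.518). Ccl7 and Ccl6 lay lower in all late AVFs without passing the test, at −2.83 and −1.88. Ccl11, the eosinophil attractant of fibroblasts, was the member of the CC list with a positive value and lay higher in all late AVFs (1.07 ± 0.32, adjusted p = 0.0247). The 3 calls fell to 0 without late AVF 16, 19, 23, or 24. Ccl3 lost its call without early AVF 2, 3, or 5 or late AVF 17 also.

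In the interleukin 1 and 6 families, 4 of 15 genes were called lower and 1 higher (median −1.09). The 4 were Il1r2, Il18, Tnf, and Il1b. Il18, a cytokine released by inflammasomes, changed by −1.49 ± 0.28 (SE, adjusted p = 0.00537), which became −0.48 and lost its call with the length offset. Tnf, the tumor necrosis factor added to this list, changed by −2.10 ± 0.46 (SE, adjusted p = 0.00878) with overlapping ranges. Il1b, the cytokine secreted by activated monocytes, changed by −1.48 ± 0.33, adjusted p = 0.00878. The gene that rose was Il6st, the signaling subunit shared by the receptors of this family, which ranged from 129.7 to 373 CPM in early AVFs (median 205) and stood at 549.6, 835, 492, 388, and 529 CPM. No early AVF reached the late range, and the change was 1.33 ± 0.27 (SE, adjusted p = 0.00631). The cytokine Il6 itself was low in both groups, at 10.3 ± 8.71 CPM (SD, n = 8) and 4.40 ± 1.22 CPM (SD, n = 5) (−1.23 ± 0.56, adjusted p = 0.118). No fall of this list was called when any 1 late AVF was left out, those of Il18 and Tnf were lost without early AVF 2 or 3 and that of Tnf without early AVF 5, 6, or 7, and the rise of Il6st was not called without early AVF 2 or 3 or any late AVF.

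Of 11 inflammatory macrophage genes, 6 were called lower and 0 higher (median −2.31), among them Arg1, Chil3, and Ly6c2. Spp1, which encodes the cytokine osteopontin, ranged from 1063 to 13277 CPM in early AVFs (median 3683) and stood at 632, 968, 455, 496, and 587 CPM. Early AVFs were all higher, and the change was −3.01 ± 0.58 (SE, adjusted p = 0.00578). Plac8, a gene of classical monocytes, changed by −2.51 ± 0.48 (SE, adjusted p = 0.00575) with overlap (−1.77 and not called with the length offset), and Fabp5, a fatty acid carrier, by −2.07 ± 0.41, adjusted p = 0.00648. In the same list Mmp12, the macrophage elastase, was at 179 ± 113 CPM (SD, n = 8) in early and 359 ± 148 CPM (SD, n = 5) in late AVFs (1.01 ± 0.44, adjusted p = 0.105), and Gpnmb, a glycoprotein of lipid-laden macrophages, had a value of 0.54. The calls of this list fell to 0 without any 1 of the late AVFs, and those of Spp1 and Plac8 were lost without early AVF 2 or 3.

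Resident macrophage markers showed no common direction. Of 9 tested, 2 were called higher, Gas6 and Mgl2, and 0 lower, with a median of −0.31. The study also counts Gas6 among the genes of its quiescent fibroblast subset, and reports it lower in AVF macrophages than in those of contralateral veins. The bulk rise of Gas6 does not tell these sources apart. Cd163, the hemoglobin scavenger receptor, was at 71.1 ± 36.3 CPM (SD, n = 8) and 33.9 ± 12.8 CPM (SD, n = 5) (−1.07 ± 0.38, adjusted p = 0.0504). Lyve1, a hyaluronan receptor that lymphatic vessels also carry, was at 56.4 ± 35.4 CPM (SD, n = 8) and 106 ± 17.1 CPM (SD, n = 5) (0.91 ± 0.40, adjusted p = 0.111), and Folr2, a folate receptor, at −0.70 on the log2 scale. Of 10 markers of macrophages in general, 2 were called lower (median −1.16). Itgam, the integrin chain also found on neutrophils, ranged from 72.9 to 283 CPM in early AVFs (median 171) and stood at 50.2, 64.3, 57.7, 44.8, and 65.7 CPM, apart from early AVFs, with a change of −1.66 ± 0.30 (SE, adjusted p = 0.00481). Fcgr3, an activating receptor for antibodies, changed by −1.14 ± 0.23 (SE, adjusted p = 0.00707), and by −0.55 with the length offset, where it was not called. Csf1r, the receptor for the growth factor of macrophages, was level with 461 ± 97.5 CPM (SD, n = 8) and 528 ± 180.4 CPM (SD, n = 5) (0.19 ± 0.24, adjusted p = 0.585). Of these 3 lists, Gas6 alone was called in every fit that left out 1 library.

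Other immune lists had few or no calls. The 7 tested MHC class II genes had 0 calls and a median of 0.74. Among them Cd74, the invariant chain, was at 1358 ± 1124 CPM (SD, n = 8) in early and 2691 ± 728 CPM (SD, n = 5) in late AVFs (0.99 ± 0.51, adjusted p = 0.172). Of 8 T cell genes tested 0 were called (median 0.94), and of 7 B and plasma cell genes 0 (median 1.15). T cell signal was low, with Cd3g at 3.76 ± 5.17 CPM (SD, n = 8) and 11.6 ± 5.23 CPM (SD, n = 5). Of 11 interferon-stimulated genes 1 was called lower (median −0.61): Rsad2, an antiviral enzyme, changed by −1.76 ± 0.38 (SE, adjusted p = 0.00811) with overlapping ranges, and lost the call without any 1 late AVF and without early AVF 2 or 3. Ighv1-34, an immunoglobulin variable segment outside the naming rule, shows how 1 vessel can carry a call. It was at 51.6 CPM in late AVF 17 and at most 0.0666 CPM in the other 12 libraries, and was called at a log2 fold change of 9.76 (adjusted p = 0.00841).

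Blood cell transcripts were high in some early AVFs. Summed erythrocyte genes ran from 1252 to 18080 CPM in early AVFs, with 9312, 8581, and 18080 CPM in early AVFs 3, 5, and 6, and from 417 to 1478 CPM in late AVFs. The 6 tested genes had a median of −2.78 and 0 calls. The globin pairs are near-identical copies, and reads between them are uncertain. Summed platelet genes ran from 392.4 to 12480 CPM in early AVFs and from 323 to 799.9 CPM in late AVFs, with 0 of 6 genes called and a median of −1.23. The part of blood content in the falls of neutrophil and monocyte genes was not tested.

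Genes of cell division fell. Of 18 tested, 12 were called lower and 0 higher, with a median of −1.33, and these 12 genes did not overlap between groups. Over all genes tested, 2.7% were called lower. Of the 347 genes called lower, 311 did not overlap, so separate ranges are not particular to division genes. The 12 falls in this list covered mitotic regulators (Cdk1, Ccnb1, Ccnb2, Ccna2, Plk1, Birc5, Cenpf, Top2a) and enzymes and factors of DNA synthesis (Rrm2, Tyms, Tk1, Pcna). Cdk1, the kinase that starts mitosis, ranged from 46.9 to 145 CPM in early AVFs (median 89.1) and stood at 23.0, 17.97, 23.5, 20.1, and 22.1 CPM. Late AVFs were low and close together, and the change was −2.10 ± 0.29 (SE, adjusted p = 0.00147). Birc5, which encodes survivin of the chromosomal passenger complex, ranged from 35.0 to 203 CPM in early AVFs (median 74.9) and stood at 12.6, 11.2, 19.4, 16.0, and 18.1 CPM. It too was apart between groups, with a change of −2.60 ± 0.43 (SE, adjusted p = 0.00335), which was −1.88 without early AVFs 3, 5, and 6. Ccnb1, the cyclin partner of Cdk1, changed by −1.53 ± 0.23 (SE, adjusted p = 0.00246) and Rrm2, a subunit of the enzyme that makes deoxyribonucleotides, by −1.51 ± 0.26 (SE, adjusted p = 0.00377). Mki67, the common marker of cycling cells, was not called, at 57.9 ± 20.6 CPM (SD, n = 8) in early and 36.9 ± 5.57 CPM (SD, n = 5) in late AVFs (−0.65 ± 0.26, adjusted p = 0.0744). Cdk1 kept its call without any 1 library, Ccnb1 lost it without late AVF 19 or 24, and Birc5 and Rrm2 lost it without any 1 late AVF. The count of 12 ran from 1 without late AVF 19 to 15, and it was 8 without early AVFs 3, 5, and 6 and 11 with the length offset. It was 1 with the spread shared over all 25 bulk libraries and 15 over the 18 AVFs.

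Promoters of division genes are known for CCAAT boxes, bound by the NF-Y complex. The letters CCAAT, searched on both strands (read as ATTGG on the other), were present in 13 of 16 division gene windows, or 81.2%, from 250 bases before to 50 bases after the start in RefSeq's GRCm38.p6 annotation. All windows of this length held them in 37.4% of 32851 cases. Of the division genes called lower, 8 of 11 with a window held the letters (72.7%). The 250 bases before the start are printed 5′ to 3′ on the gene's strand for the 4 division genes described above and for Ccnb2, to show how the boxes are spaced, with the letters CCAAT or ATTGG in capitals.
Cdk1 (chr10:69352913-69353162, minus strand): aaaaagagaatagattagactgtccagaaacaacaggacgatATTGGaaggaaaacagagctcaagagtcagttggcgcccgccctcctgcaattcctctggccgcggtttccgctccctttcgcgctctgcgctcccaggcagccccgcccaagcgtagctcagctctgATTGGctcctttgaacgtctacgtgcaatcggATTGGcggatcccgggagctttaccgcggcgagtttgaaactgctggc
Ccnb1 (chr13:100786487-100786736, minus strand): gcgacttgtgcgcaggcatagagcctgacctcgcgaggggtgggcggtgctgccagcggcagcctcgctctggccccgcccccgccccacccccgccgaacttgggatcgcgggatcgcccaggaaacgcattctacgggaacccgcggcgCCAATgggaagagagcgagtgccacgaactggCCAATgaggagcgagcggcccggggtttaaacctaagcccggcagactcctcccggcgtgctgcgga
Birc5 (chr11:117848987-117849236, plus strand): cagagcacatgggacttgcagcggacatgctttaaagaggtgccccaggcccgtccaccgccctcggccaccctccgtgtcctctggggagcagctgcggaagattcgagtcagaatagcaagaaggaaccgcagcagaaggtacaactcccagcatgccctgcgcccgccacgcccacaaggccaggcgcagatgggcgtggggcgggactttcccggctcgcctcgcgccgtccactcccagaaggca
Rrm2 (chr12:24708004-24708253, plus strand): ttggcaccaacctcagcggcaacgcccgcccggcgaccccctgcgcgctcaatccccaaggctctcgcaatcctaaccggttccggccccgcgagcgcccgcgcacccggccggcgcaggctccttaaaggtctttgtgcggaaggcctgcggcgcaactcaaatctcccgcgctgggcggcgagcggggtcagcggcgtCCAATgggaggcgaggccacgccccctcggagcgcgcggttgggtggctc
Ccnb2 (chr9:70421555-70421804, minus strand): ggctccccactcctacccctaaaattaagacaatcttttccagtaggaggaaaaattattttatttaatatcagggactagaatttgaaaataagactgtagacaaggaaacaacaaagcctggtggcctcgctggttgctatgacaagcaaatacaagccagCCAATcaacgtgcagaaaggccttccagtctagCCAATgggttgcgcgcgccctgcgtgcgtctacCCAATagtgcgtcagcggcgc
Cdk1 and Ccnb2 each held 3 matches, Ccnb1 2, Rrm2 1, and Birc5 0. In Ccnb2 the matches began 87, 54, and 21 bases before the start, and in Ccnb1 99 and 67 bases before it. All 5 genes were called lower, and Birc5, with no match in this window, had the largest fall of the 5. A match describes the letters and not a bound site.

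Energy and stress genes held few calls, to be read against 2.7% called lower over all genes tested. Of 16 glycolysis and glucose uptake genes 2 were called lower and 0 higher (median −0.88). Pgk1, which makes ATP in glycolysis, ranged from 81.3 to 205 CPM in early AVFs (median 122) and stood at 55.7, 55.0, 50.4, 57.9, and 41.3 CPM. Late AVFs were all lower, and the change was −1.36 ± 0.24 (SE, adjusted p = 0.00481). Hk2, the inducible hexokinase, changed by −1.76 ± 0.38 (SE, adjusted p = 0.00843), and by −1.13 without early AVFs 3, 5, and 6, where it was not called. Of 13 respiratory chain genes 1 was called lower (median −0.47), the cytochrome oxidase subunit Cox5a, at −1.58 ± 0.34 (SE, adjusted p = 0.00834). These 3 calls were lost without early AVF 3 or any 1 late AVF, and those of Hk2 and Cox5a also without early AVF 2, 5, or 7. The letters ACGTG, the core of the element bound by hypoxia-inducible factors, were in 11 of 24 glycolysis windows (45.8%) and in 19.6% of all windows. The clock element CACGTG named later contains these letters.

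Hmox1, the enzyme that degrades heme, ranged from 130.0 to 542 CPM in early AVFs (median 377) and stood at 91.7, 109, 101, 59.6, and 77.4 CPM. It lay lower in all late AVFs, with a change of −2.04 ± 0.32 (SE, adjusted p = 0.00260), and was the 1 gene called of 9 in the oxidative stress response (median −0.56). The call was lost without late AVF 16, 19, or 24. Psat1, an enzyme of serine synthesis, ranged from 29.5 to 82.8 CPM in early AVFs (median 61.4) and stood at 25.4, 15.3, 18.7, 14.4, and 19.4 CPM. The groups were apart in a change of −1.73 ± 0.25 (SE, adjusted p = 0.00177), called without any 1 library, while the other 9 genes of the amino acid and ATF4 response were not called (median −0.44). Of 9 heat shock chaperones 2 were called lower (median −0.32), the cytosolic Hsp90aa1 at −1.07 ± 0.20 (SE, adjusted p = 0.00481) and the mitochondrial Hspe1 at −1.99 ± 0.45 (SE, adjusted p = 0.00986). With the length offset the change of Hspe1 was −0.88 and no longer called, without early AVFs 3, 5, and 6 it was −1.09, and both calls were lost without early AVF 2, 3, or 7 or any late AVF. Of 10 ribosome biogenesis genes 1 was called lower (median −0.53), the nucleolar Gnl3 at −1.03 ± 0.20 (SE, adjusted p = 0.00586), lost without early AVF 2, 3, 5, or 6 or any late AVF. Cholesterol synthesis (9 tested, median 0.55) and circadian clock genes (10 tested, median 0.77) had 0 calls. Nr1d1, a repressor of the clock, lay higher in all late AVFs without passing the test (1.54 ± 0.51, adjusted p = 0.0392), and the clock element CACGTG was in 5 of 14 clock gene windows (35.7%) against 7.15% of all.

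Smooth muscle genes moved unevenly. Of 12 contractile genes 2 were called higher and 0 lower (median 0.69). Myh11, the smooth muscle myosin heavy chain, ranged from 26.7 to 99.7 CPM in early AVFs (median 57.7) and stood at 283, 288, 280.0, 331, and 275 CPM. The groups were apart, and late AVF 23 stood above the other 4 late AVFs, with a change of 2.26 ± 0.25 (SE, adjusted p = 0.000698). Its mean in contralateral veins was 2398 ± 932 CPM (SD, n = 7). Smtn, which binds actin in contractile cells, changed by 1.06 ± 0.17 (SE, adjusted p = 0.00263), and by 0.94 with the length offset, under the limit of 1. Both were called without any 1 library. Acta2, the smooth muscle actin that myofibroblasts share, was at 1358 ± 441 CPM (SD, n = 8) and 2124 ± 354 CPM (SD, n = 5) (0.65 ± 0.24, adjusted p = 0.0609), Cnn1, calponin, at 0.68, and Tagln at −0.14, none of which passed. Mylk, the kinase that activates myosin, lay higher in all late AVFs at 1.00. Without early AVFs 3, 5, and 6 there were 6 calls in this list. The CArG box, the site of serum response factor, was in 0 of the 8 smooth muscle windows found, and in 1.63% of all windows.

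Pericyte genes rose in 3 of 6 cases and fell in 0 (median 1.67). Pdgfrb, the receptor through which mural cells are recruited, ranged from 32.8 to 134 CPM in early AVFs (median 81.7) and stood at 326, 453, 308, 281, and 329 CPM. The groups were wide apart, and the change was 2.04 ± 0.30 (SE, adjusted p = 0.00177). Cspg4, the NG2 proteoglycan, ranged from 24.2 to 45.0 CPM in early AVFs (median 34.6) and stood at 108, 122, 115, 103, and 95.5 CPM. The highest early AVF lay below all late ones, and the change was 1.64 ± 0.15 (SE, adjusted p = 0.000378). Notch3, the Notch receptor of mural cells, changed by 2.15 ± 0.35 (SE, adjusted p = 0.00310), a call lost without late AVF 19 or 24. Rgs5 and Abcc9 did not pass at 1.70 and 1.26, with no overlap between groups. Pdgfrb is also made by fibroblasts, and the marker does not tell these sources apart.

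Endothelial genes showed 2 calls higher and 0 lower of 14 (median 0.49). Vwf, the von Willebrand factor stored in endothelial granules, ranged from 44.4 to 113 CPM in early AVFs (median 67.9) and stood at 216, 253, 131, 119, and 246 CPM. No early AVF reached the late range, and the change was 1.44 ± 0.24 (SE, adjusted p = 0.00325), lost without late AVF 16, 17, or 24. Tek, the angiopoietin receptor, changed by 1.27 ± 0.24 (SE, adjusted p = 0.00525), lost without early AVF 2 or 3 or any late AVF. Pecam1, an adhesion molecule of all endothelium, did not pass, at 137 ± 48.3 CPM (SD, n = 8) and 236 ± 37.0 CPM (SD, n = 5) (0.78 ± 0.24, adjusted p = 0.0308). The junction gene Cdh5 had a value of −1.19 ± 0.36, adjusted p = 0.0275, opposite in sign to Vwf.

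Resting fibroblast genes had 3 of 12 called higher, 0 lower, and a median of 1.92. Gsn, gelsolin, an actin-severing protein abundant in quiescent adventitial fibroblasts, ranged from 412 to 1028 CPM in early AVFs (median 582) and stood at 3785, 4147, 2968, 2211, and 1669.7 CPM. Late AVFs were higher throughout, with a change of 2.23 ± 0.27 (SE, adjusted p = 0.000831). Gdf10, a factor of the TGF-beta family, changed by 2.04 ± 0.32 (SE, adjusted p = 0.00263), lost without late AVF 24, and Fmo2, a monooxygenase, by 1.58 ± 0.28 (SE, adjusted p = 0.00481), lost without late AVF 16, 17, 23, or 24. C7, a complement component, and Scara5, a ferritin receptor, lay higher in all late AVFs without passing (3.74 ± 1.12, adjusted p = 0.0266 and 2.76 ± 0.80, adjusted p = 0.0237). The 12 values were positive, from 0.97 to 3.74.

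Activated fibroblast genes did not share that direction. Of 9 genes 0 were called higher and 1 lower (median −0.07). Adam12, a membrane protease of activated mesenchyme, changed by −1.52 ± 0.31 (SE, adjusted p = 0.00660), with overlapping ranges, and lost the call without early AVF 2, 3, or 5 or any late AVF. Postn, periostin, was at 1876 ± 1386 CPM (SD, n = 8) and 1790.0 ± 365 CPM (SD, n = 5) (−0.07 ± 0.55, adjusted p = 0.944). Tnc, tenascin, had a value of −0.21, Cthrc1, a secreted collagen-associated protein, of −1.37, and Fap, a serine protease, of 1.86, none past the test.

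Among fibrillar collagen and elastic fiber genes, 3 of 17 were called higher and 0 lower (median 0.79), and all 3 build elastic fibers. Ltbp4, which holds latent TGF-beta and guides elastin onto microfibrils, ranged from 29.5 to 115 CPM in early AVFs (median 40.7) and stood at 427, 267, 314, 353, and 313 CPM. Early AVF 10 stood above the other early AVFs and below all late ones, and the change was 2.80 ± 0.30 (SE, adjusted p = 0.000698). Eln, tropoelastin, ranged from 274 to 2073 CPM in early AVFs (median 519) and stood at 2664, 3116, 2348, 2656, and 2626 CPM. The ranges were apart, but the change of 1.99 ± 0.45 (SE, adjusted p = 0.00925) kept its call only without early AVF 10 and lost it without any of the other 12 libraries. Fbln5, which links elastin to cells, changed by 2.15 ± 0.36 (SE, adjusted p = 0.00335), lost without late AVF 16, 19, or 24. The collagens of interstitial fibrils did not pass: Col1a1 was at 2901 ± 1886 CPM (SD, n = 8) and 6285 ± 3420.0 CPM (SD, n = 5) (1.12 ± 0.57, adjusted p = 0.167), and Col3a1 at 9230.0 ± 6155 CPM (SD, n = 8) and 20430.0 ± 8067 CPM (SD, n = 5) (1.15 ± 0.55, adjusted p = 0.136).

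Basement membrane genes held 8 calls of 15, all higher, with a median of 1.30 and all late AVFs above all early AVFs for 11. Over all genes tested, 1.87% were called higher and 6.76% had all late AVFs above all early AVFs. Basement membranes are sheets of collagen IV and laminin that surround muscle cells and underlie endothelium. Col4a1, the common chain of collagen IV, ranged from 206 to 522 CPM in early AVFs (median 369) and stood at 1046, 1295, 1278, 1029.7, and 1129.9 CPM. The late AVFs kept within a narrow band above the early ones, with a change of 1.64 ± 0.24 (SE, adjusted p = 0.00177). Its partner Col4a2 changed by 1.44 ± 0.23, adjusted p = 0.00313. Col4a5, a chain of the smooth muscle networks, ranged from 6.74 to 45.6 CPM in early AVFs (median 25.3) and stood at 124, 110.4, 100.5, 107, and 144 CPM. It was likewise apart, with a change of 2.25 ± 0.34 (SE, adjusted p = 0.00227).

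Lamb2, the laminin beta chain of mature membranes, ranged from 27.3 to 73.6 CPM in early AVFs (median 46.3) and stood at 251, 344, 207, 152, and 199.96 CPM. The groups did not overlap, and the change was 2.24 ± 0.26 (SE, adjusted p = 0.000698). Its early counterpart Lamb1 was not called (0.88 ± 0.35, adjusted p = 0.0782). Col18a1, from which endostatin is cut, changed by 1.38 ± 0.20 (SE, adjusted p = 0.00177). Col8a1, Col15a1, and Lama5 were the remaining called members, at 2.03, 1.30, and 1.06. The 4 genes Col4a1, Col4a5, Lamb2, and Col18a1 were called without any 1 library. The count of 8 fell to 4 without late AVF 19 or 24, was 8 without early AVFs 3, 5, and 6, and was 6 with the length offset. It was 2 with the spread shared over all 25 bulk libraries and 11 over the 18 AVFs.

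Of 11 tendon and cartilage genes tested 2 were called higher and 0 lower (median 1.52). These were Comp and Prelp. Prelp, a leucine-rich proteoglycan that anchors basement membranes to connective tissue, ranged from 45.4 to 279 CPM in early AVFs (median 99.2) and stood at 509, 869.5, 684, 676, and 619 CPM. It was higher in all late AVFs, with a change of 2.56 ± 0.41 (SE, adjusted p = 0.00274), lost without late AVF 19. Fmod, fibromodulin, and Acan, aggrecan, lay higher in all late AVFs without passing (3.38 ± 1.23, adjusted p = 0.0560 and 3.47 ± 0.85, adjusted p = 0.0127). The regulators of tendon and cartilage, Scx and Sox9, were at −0.99 and −0.44 and did not pass. Col10a1, outside this list, is a cartilage collagen too. The list's genes were chosen with earlier results of these samples known and are no independent evidence of its direction.

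**Figure D5:**
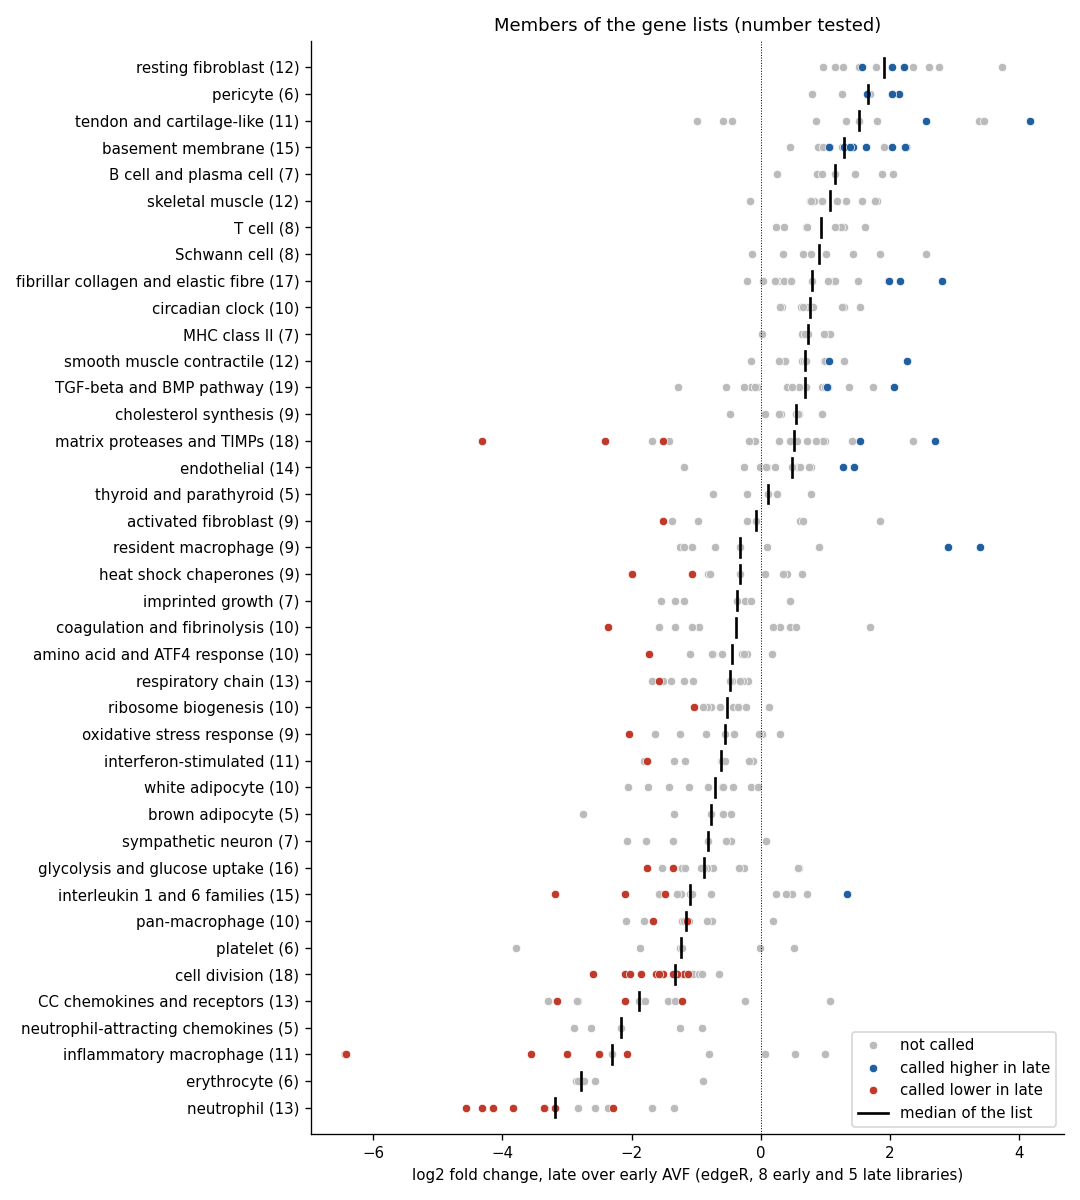
Log2 fold change of late over early AVFs for the tested members of each list, 1 point per gene (blue, called higher; red, called lower; gray, not called), with the list median as a bar and the number tested in parentheses. Y-linked genes are not drawn. Medians run from −3.19 for neutrophil genes to 1.92 for resting fibroblast genes, and the basement membrane list holds 8 called rises and the cell division list 12 called falls.

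Proteases and their inhibitors moved both ways, with 2 of 18 called higher and 3 lower (median 0.51). Timp3, a matrix-bound inhibitor of metalloproteinases, ranged from 37.1 to 479 CPM in early AVFs (median 207) and stood at 1326, 1985, 1153, 667, and 1665 CPM. Timp1, a soluble inhibitor induced in wounds, ranged from 416 to 2921 CPM in early AVFs (median 1023) and stood at 188, 279, 223, 186, and 261 CPM. Both pairs of ranges were apart, in opposite directions. Timp3 changed by 2.71 ± 0.53 (SE, adjusted p = 0.00597) and Timp1 by −2.40 ± 0.49 (SE, adjusted p = 0.00674). The change of Timp1 was −1.20 and no longer called with the length offset, and −1.67 without early AVFs 3, 5, and 6. Mmp8, the collagenase of neutrophils, changed by −4.31 ± 0.83 (SE, adjusted p = 0.00560) with overlapping ranges, and Mmp11, a stromal protease, by 1.55 ± 0.34, adjusted p = 0.00907. Mmp2, gelatinase A, was 173 ± 166 CPM (SD, n = 8) in early and 890.0 ± 394 CPM (SD, n = 5) in late AVFs, without overlap and without passing (2.36 ± 0.99, adjusted p = 0.0927). The rises of Timp3 and Mmp11 both lost their call without early AVF 2 or late AVF 16, 17, 19, or 24, and the 3 falls did so without early AVF 2 or 3 or late AVF 16, 19, 23, or 24. Timp3 also lost it without late AVF 23, and Timp1 and Adam12 without early AVF 5 or late AVF 17.

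Of 19 TGF-beta and BMP pathway genes 2 were called higher and 0 lower (median 0.68), both latent TGF-beta binding proteins. Ltbp2, which also sits on elastic microfibrils, ranged from 30.3 to 195 CPM in early AVFs (median 91.1) and stood at 313, 475, 415, 343, and 385 CPM. Late AVFs were all higher, and the change was 2.06 ± 0.36 (SE, adjusted p = 0.00434). Ltbp1 changed by 1.03 ± 0.18 (SE, adjusted p = 0.00474), close to the limit of 1. The ligand Tgfb1 was low at 6.70 ± 5.24 CPM (SD, n = 8) and 4.61 ± 1.10 CPM (SD, n = 5), and Tgfb3 lay higher in all late AVFs without passing (1.75 ± 0.59, adjusted p = 0.0421). Both calls were lost without late AVF 16, 17, 19, or 24, and that of Ltbp1 without early AVF 3 or 6. Of 10 coagulation and fibrinolysis genes 1 was called lower (median −0.38): Serpinb2, an inhibitor of plasminogen activators made by monocytes, ranged from 39.1 to 269 CPM in early AVFs (median 66.2) and stood at 19.3, 27.3, 19.7, 11.8, and 10.5 CPM, apart between groups and highest in early AVF 5. Its change was −2.36 ± 0.46 (SE, adjusted p = 0.00606), lost without early AVF 2 or 3 or any late AVF. The 7 imprinted growth genes tested had 0 calls (median −0.37). Over the 41 lists, 30 of 420 different genes tested were called higher and 45 lower. Medians of the 6 lists of neighboring tissue were 1.07 for skeletal muscle, 0.11 for thyroid and parathyroid, −0.82 for sympathetic neuron, −0.70 for white adipocyte, −0.77 for brown adipocyte, and 0.90 for Schwann cell, and the 4 Y-linked genes had a median of −0.55.

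Mid AVFs, which took no part in the fit, lay between the early and the late mean for 239 of the 240 genes called higher (99.6%) and for 341 of the 347 called lower (98.3%). On the log2(CPM + 1) scale they had covered a median of 70.6% of the way for rises and 79.5% for falls. Because genes were chosen for being far apart in early and late AVFs, another group tends to fall between, and the placement is a description. Igfbp2 stood at 4.84 ± 4.25 CPM (SD, n = 8), 29.6 ± 15.6 CPM (SD, n = 5), and 106 ± 43.4 CPM (SD, n = 5) in early, mid, and late AVFs, and Arg1 at 795 ± 989 CPM (SD, n = 8), 21.6 ± 8.16 CPM (SD, n = 5), and 9.21 ± 2.68 CPM (SD, n = 5). Cdk1 stood at 91.2 ± 36.5 CPM (SD, n = 8), 34.4 ± 7.00 CPM (SD, n = 5), and 21.3 ± 2.29 CPM (SD, n = 5). The late mean was above that of contralateral veins for 126 of the 240 rises and 179 of the 347 falls.

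The single-cell libraries gave another readout of the named genes, with 1 library each from pooled early and late AVFs and hence no test. Summed over kept barcodes (4753 early, 5821 late), 65 of the 76 named genes had the same sign as in bulk. The log2 ratio of late over early was 3.98 for Retnla, 3.24 for Gsn, and 2.73 for Comp, and −3.54 for Chil3, −3.48 for Arg1, −3.47 for Spp1, and −1.42 for Cdk1. Signs were opposite for 11 genes: Mt2 (1.74), Mt1 (0.96), Hk2 (1.72), Hsp90aa1 (1.32), Hspe1 (0.88), Gnl3 (0.54), Hmox1 (0.46), Serpinb2 (1.08), Ly6c2 (0.08), Vwf (−1.52), and Ltbp2 (−0.15). The libraries differed in depth, with a median of 8951 UMIs per kept barcode in early and 15425 in late AVFs, and shared 6 barcodes. Vessels, harvest days, and dissociation differed from the bulk samples, and their part in the 11 differences was not tested.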

How the data were processed

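Bulk RNA was sequenced in pairs from 1 poly(A)-selected ultra-low-input library per vessel. The authors deposited whole-number read counts per gene (56980 Ensembl identifiers), without normalization. The submitters' processing notes name STAR, Cell Ranger, mm10, and GRCm38 without saying which made this table, and its counting tool, strand setting, and annotation were not given in the sources used here. Groups came from the deposited labels, and library numbers were not shared between groups. Identifiers were named from the single-cell gene lists (32210) or the reference annotation (19962), and 4808 had no symbol. The table held 0 columns of other samples.

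Genes whose DESeq2-normalized count averaged at least 100 over the 13 libraries were tested with edgeR 4.0.16 (R 4.3.3) on the deposited counts, with TMM library sizes, group as the only term, and the quasi-likelihood F test. P values were adjusted by Benjamini and Hochberg over 12857 genes, and calls needed an adjusted p under 0.01 and a log2 fold change of 1 or more in size, the threshold of the study's results. The common biological coefficient of variation was 0.544. On simulated counts for these 12857 genes in 8 against 5 libraries, 64% of 4-fold and 81% of 8-fold changes were recovered, with 0 unchanged genes called. These values hold for the simulated counts only. The real early AVFs differed more among themselves than late AVFs did, and some shared a shift toward short transcripts. False calls under such differences were not tested, so the 0 is not a false-call rate for the real libraries. Replicates were separate mice. Total counts are given with the libraries.

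Genes named were the 12 largest rises and 12 largest falls among called genes without overlap and with at least 10 CPM in the higher group, and in each list the called members, at most 4 by adjusted p. Members and the 41 lists, which hold 440 genes, were chosen with earlier results of these data known, and counts and medians over lists carry no test. Genes given without a call stand for their list, and some genes that the rule names are not reported here. Alternatives were other library sets, terms for labelled sex, DESeq2 1.42.0, limma 3.58.1, other normalizations and filters, and each library left out. Chosen after seeing the data were the fits without early AVFs 3, 5, and 6 (and without 5 and 6), counts thinned to 23676215, a term for Y-linked transcripts (a library with over 50 CPM summed over 4 genes), and an offset for transcript length from the reference annotation.

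For the single-cell libraries the authors deposited UMI counts made with Cell Ranger, in version 6.0.2 per the file headers. All barcodes between 200 and 6000 genes, with mitochondrial counts of 10% or less, were summed per library, and doublets were not removed. Promoter windows came from RefSeq (GRCm38.p6), with 32851 windows of 27025 genes.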

Additional observations from a re-analysis of the deposited data

Results flagged for a closer look

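Of 152 groups of values, those of the 76 named genes in early and in late AVFs, 6 held 1 library far from the rest of its group. Chance would mark about 1 group in 20 if groups were independent. These groups share the same 13 libraries and hold genes chosen for their calls, so the number that chance gives is not known. The 6 are listed as values only. Comp was at 43.8 CPM in late AVF 16, below the other late AVFs. Il18 was at 14.6 CPM in late AVF 17, above the other late AVFs. Myh11 was at 331 CPM in late AVF 23, the late AVF with the highest sum of skeletal muscle genes. Mmrn1 was at 0.106 CPM in early AVF 6, the library with the fewest detected genes among the AVFs. Ltbp4 was at 115 CPM in early AVF 10, above the other early AVFs, and Serpinb2 at 269 CPM in early AVF 5. Each of the 6 genes had ranges that did not overlap between early and late AVFs with these libraries included.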

How the results depend on the processing

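No paired analysis was possible because the library numbers in the labels are not shared between the early and the late group. Against 587 calls, the count was 381 when the spread was shared over all 25 libraries, 1543 over the 18 AVFs, 278 with a term for labelled sex, 1761 by DESeq2, 1517 by edgeR's likelihood ratio test, 1295 by limma voom with quality weights, 373 with the filterByExpr rule (18876 genes), 278 without a filter (35860 genes), and 1872 at an adjusted p under 0.05. It was 4 in labelled males and 0 in labelled females. Among alternatives chosen after seeing the data, it was 1599 with a term for Y-linked transcripts and 380 with the length offset. It stayed within 1.5 times with other scaling factors (626, 732), thinned counts (615), and without early AVFs 5 and 6 (749). Leaving out 1 library gave 72 to 1125 calls, and 1998 to 2595 genes without overlap. The count without overlap used the same scaled values with 1 library fewer. It could therefore only stay at or rise above the 1972 of the full set. The difference between labelled sexes gave 64 genes by DESeq2 and 0 by edgeR. Fits that leave out a library or sex have fewer samples by construction. The cause of the other shifts was not tested. Of 2355 comparisons of a named gene with an alternative, 1706 kept the call, 649 lost it, and 0 changed sign. The alternatives use libraries by which these genes were chosen, so the kept signs are a description. Among the 76 named genes, 34 kept the call with all 25 libraries, 59 without a filter, and 64 with filterByExpr. All 76 kept it with the 18 AVFs and by DESeq2. With all deposited barcodes, single-cell log2 ratios changed sign for Rsad2 (0.41), Notch3 (−0.023), and Serpinb2 (−0.83).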

Other observations

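Outside the naming rule, 48 further genes were called in every fit that left out 1 library, and those named here were chosen after their values were seen. Egr1, an immediate early transcription factor induced by growth factors and shear, ranged from 14.0 to 63.0 CPM in early AVFs (median 26.2) and stood at 115, 333, 183, 123, and 127 CPM in late AVFs 16, 17, 19, 23, and 24. All late AVFs lay above all early ones, with a change of 2.55 ± 0.35 (SE, adjusted p = 0.00147) by edgeR. Nr4a1, an immediate early nuclear receptor, changed by 1.61 ± 0.21 (SE, adjusted p = 0.000994) and Ccn1, a matricellular protein induced by stretch, by 1.69 ± 0.24 (SE, adjusted p = 0.00177). In a list of immediate early and flow-responsive genes made after values were seen, these were the 3 called of 13 tested, with a median of 0.56. Klf2, Atf3, Egr3, and Klf4 were negative without being called, at −1.01, −0.65, −0.21, and −0.01. Ccn2, Egr2, Ier2, Fos, Jun, and Junb were positive without passing, from 1.04 for Ccn2 to 0.29 for Junb. Heyl, a target of Notch signaling, changed by 2.17 ± 0.26 (SE, adjusted p = 0.000777) and Angpt2, an angiopoietin of activated endothelium and mural cells, by 1.29 ± 0.15 (SE, adjusted p = 0.000698). Wnt5a, a noncanonical Wnt ligand, changed by 1.84 on the log2 scale, Itga8, an integrin chain of mural cells, by 1.85, and Ace, the enzyme that makes angiotensin II, by 1.75.

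Falls called in every such fit included receptors of myeloid cells. Fcgr4, an activating antibody receptor, ranged from 47.9 to 207 CPM in early AVFs (median 112) and stood at 19.1, 21.1, 18.2, 10.9, and 11.5 CPM. Late AVFs were all lower, with a change of −2.76 ± 0.35 (SE, adjusted p = 0.000961). Ms4a6d and Ms4a6b, membrane proteins of one family whose members may share reads, changed by −2.50 and −1.93. Steap1, a membrane protein of another family, changed by −3.26. Fkbp5, a chaperone induced by glucocorticoids, ranged from 53.5 to 120.1 CPM in early AVFs (median 74.9) and stood at 24.5, 16.4, 29.0, 16.8, and 13.2 CPM. Its groups were apart, at −1.92 ± 0.25 (SE, adjusted p = 0.00118), and with Mt1 and Mt2 it made 3 called of 8 genes in a glucocorticoid-responsive list (median −0.35). The other members were not called. Of these, Tsc22d3, Per1, and Klf9 were positive, at 0.24, 0.33, and 0.27, and Sgk1 and Zbtb16 were at −0.30 and −0.40. Of 7 lymphatic endothelial genes 3 were called higher (median 2.24): Prox1 at 2.74 ± 0.51 (SE, adjusted p = 0.00496), Flt4 at 2.24 ± 0.40 (SE, adjusted p = 0.00456), and Mmrn1. Pdpn, of the same list, went the other way without being called (−1.08 ± 0.32, SE). Ccl21a, Reln, and Lyve1 were positive at 3.32, 1.63, and 0.91 and did not pass. Prox1, the transcription factor of lymphatic identity, and Flt4, the receptor of VEGF-C, did not overlap between groups, but neither kept its call in every fit without 1 library, and perivascular lymphatics taken with the vessel were not separated from the wall. The lists of these paragraphs were made from values seen and carry no test.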
